A study of Mus musculus with 23 samples.

Results

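The transcripts of the T cell receptor complex and of its proximal signalling were followed in mouse CD4+ T cells. The members were 10 genes taken by name, Cd3d, Cd3e, Cd3g, Cd247, Cd4, Themis, Lck, Zap70, Lat and Cd5, and every probe set that the array annotation pairs with a member alone was used. That gave 18 probe sets for 9 of the 10 members, out of 45101 probe sets and 18194 genes on the arrays. Lck, the kinase bound to the CD4 tail, was not analysed here. Total RNA came from cells divided into gates by a pair of surface proteins: CD25, which forms part of the high-affinity receptor for interleukin-2, and CD49f, the laminin-binding integrin subunit coded by Itga6. The groups were CD25+CD49f+ (4 arrays), CD25+CD49f- (5 arrays), CD25-CD49f+ (7 arrays) and CD25-CD49f- (7 arrays), all CD4+ T cells from mice with no treatment named, and neither strain nor age is given in the sources used here.

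The T cell receptor has no enzyme of its own. The alpha and beta chains bind peptide and MHC, and the CD3 delta, epsilon, gamma and zeta chains carry the signal across the membrane through tyrosine motifs that Lck phosphorylates, helped by the CD4 co-receptor. Zap70 docks on those motifs and phosphorylates the membrane scaffold Lat, from which the calcium, Ras and protein kinase C branches start. Themis binds Grb2 and the phosphatase Shp1 and is needed for thymocyte selection, and Cd5 is a surface receptor that dampens the signal and whose level is known to follow signal strength.

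The gates were checked on 3 transcripts, with all levels given as log2 RMA values. Il2ra, which codes CD25, averaged 9.60 ± 0.18 in CD25+CD49f+, 9.69 ± 0.16 in CD25+CD49f-, 6.84 ± 0.24 in CD25-CD49f+ and 5.42 ± 0.20 in CD25-CD49f- cells (SD, n = 4, 5, 7 and 7). Foxp3, which directs the regulatory T cell programme, averaged 9.85, 9.79, 8.25 and 4.74 in the same order of gates, so the CD25-CD49f+ gate carried far more Foxp3 transcript than the CD25-CD49f- gate. Itga6, which codes CD49f, averaged 9.81, 9.64, 9.36 and 9.79 in that order. Within CD25- cells the Itga6 transcript ran against the CD49f label, at 9.23 to 9.47 in the CD25-CD49f+ gate and 9.55 to 9.98 in the CD25-CD49f- gate (-0.44 ± 0.08, SE, limma adjusted p = 3.21e-04), and within CD25+ cells it was not called. The labels give every animal as female, but 12 arrays held Xist without Y-linked transcripts, 10 held Y-linked transcripts without Xist, and 1 array (CD25+CD49f- replicate 5) held both. Each gate contained arrays of the first 2 kinds. A group of 4 arrays stood apart, with a mean correlation with the other arrays under 0.98, and they were CD25+CD49f- replicate 5, CD25-CD49f+ replicate 1, CD25-CD49f- replicate 1 and CD25-CD49f- replicate 7. The Actb 3' minus 5' probe set difference, a sign of RNA quality, was 4.83 on CD25+CD49f- replicate 5 and 2.70 on CD25-CD49f- replicate 1, against 1.22 to 2.09 on the other arrays. The labels call the arrays biological replicates without naming animals, so a p-value reflects the variation among these arrays, and their number limits the precision.

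Themis was the member with the largest differences between the gates, and it was called lower in both CD25+ gates than in both CD25- gates. Cd4 was called lower with CD25 in both CD49f gates, by smaller amounts. Lat and Cd247 were called lower for CD25 within CD49f- cells and not within CD49f+ cells. The test of whether the CD25 difference itself differed between the CD49f gates, the interaction, called neither. It gave 0.05 ± 0.15 for Lat (limma adjusted p = 0.944) and 0.24 ± 0.22 for Cd247 (limma adjusted p = 0.73). Cd5 was the one member called higher, in CD25+CD49f+ against CD25-CD49f- cells. Cd3d, Cd3e, Cd3g and Zap70 were not called in any of the 6 pairwise comparisons. Comparisons are named by the marker that differs and the marker held fixed: CD25 within CD49f- cells sets CD25+CD49f- against CD25-CD49f- cells, and so on. Differences are on the log2 scale with the standard error after the ± sign. A gene was called at a limma adjusted p under 0.05 over all 18194 genes. Because the arrays measure bulk RNA, fewer cells that make a transcript and less of it per cell cannot be told apart.

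**Figure D1:**
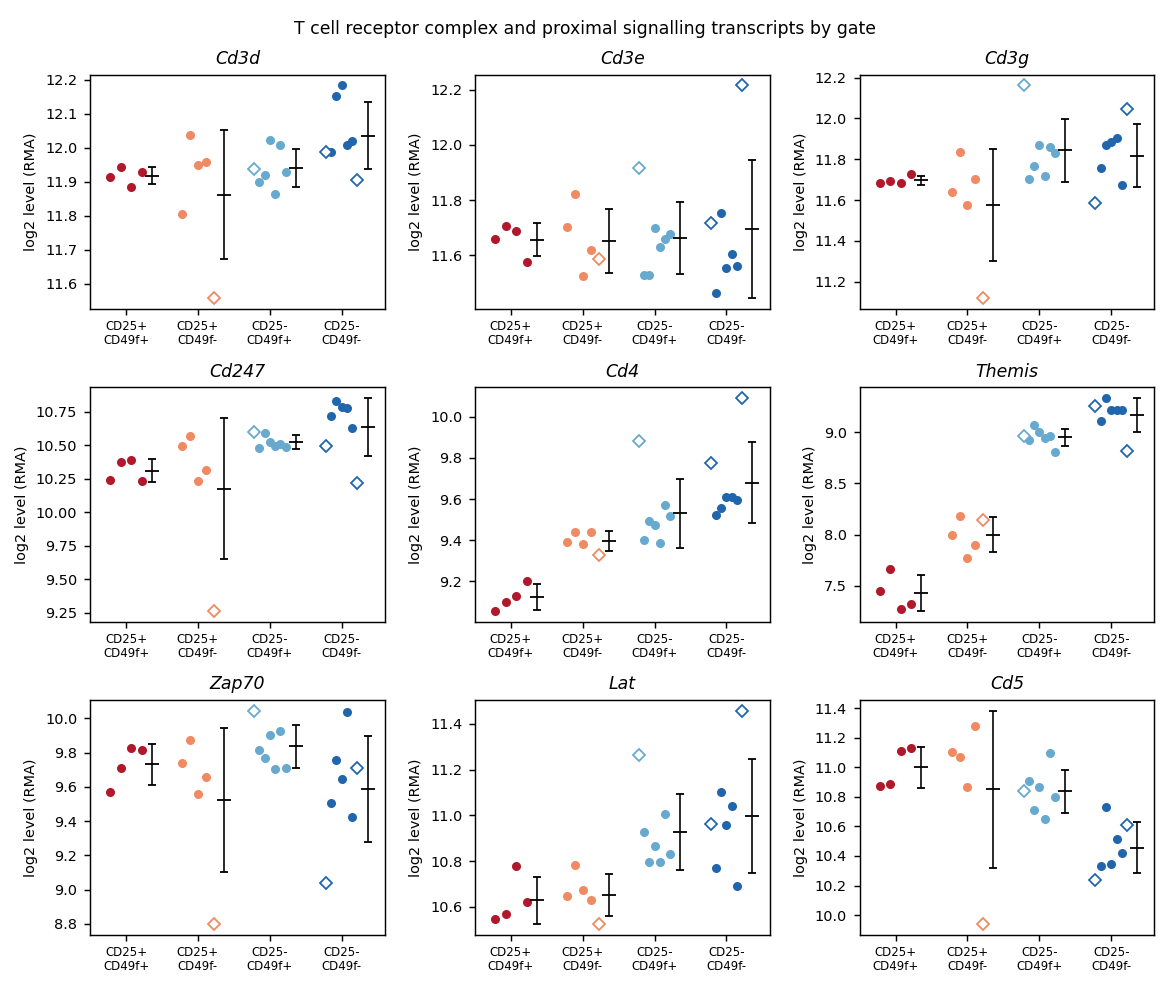
Log2 RMA levels of the 9 measured members (vertical axes) on each of the 23 arrays in the 4 gates (horizontal axes); points are arrays, open diamonds the 4 arrays that stood apart, and the bar beside each gate the mean with 1 SD. Themis separates by CD25, with all CD25+ arrays between 7.27 and 8.19 and all CD25- arrays between 8.80 and 9.33, while the CD3 chains overlap.

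The promoters of 3 members are shown because these genes were called in different directions between the CD25+CD49f+ gate and the CD25-CD49f- gate. Themis and Lat were lower in CD25+CD49f+ cells and Cd5 was higher. Cd4 was also called lower there, but no promoter window was available for it. Each window holds 300 bases, 250 before and 50 after the transcription start, from RefSeq (build GRCm38.p6), written 5′ to 3′ on the strand of the gene. Capitals mark matches, on either strand, to the letters of a Runx motif (TGTGGT), an ETS motif (AGGAAG), an E-box (CAGNTG) or a forkhead motif (TGTTTA).
Themis promoter, chr10:28668110-28668409, plus strand: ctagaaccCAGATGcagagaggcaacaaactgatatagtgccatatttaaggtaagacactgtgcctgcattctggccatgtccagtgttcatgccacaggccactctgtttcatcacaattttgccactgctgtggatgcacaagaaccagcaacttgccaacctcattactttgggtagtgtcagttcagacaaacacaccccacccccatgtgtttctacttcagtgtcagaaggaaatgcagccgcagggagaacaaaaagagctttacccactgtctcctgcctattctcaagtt
Lat promoter, chr7:126369519-126369818, minus strand: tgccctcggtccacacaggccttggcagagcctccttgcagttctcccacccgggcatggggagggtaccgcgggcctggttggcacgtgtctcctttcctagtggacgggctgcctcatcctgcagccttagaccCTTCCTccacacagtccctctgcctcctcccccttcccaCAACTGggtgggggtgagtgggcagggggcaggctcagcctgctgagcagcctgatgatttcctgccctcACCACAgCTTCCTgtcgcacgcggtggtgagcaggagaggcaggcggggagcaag
Cd5 promoter, chr19:10738925-10739224, minus strand: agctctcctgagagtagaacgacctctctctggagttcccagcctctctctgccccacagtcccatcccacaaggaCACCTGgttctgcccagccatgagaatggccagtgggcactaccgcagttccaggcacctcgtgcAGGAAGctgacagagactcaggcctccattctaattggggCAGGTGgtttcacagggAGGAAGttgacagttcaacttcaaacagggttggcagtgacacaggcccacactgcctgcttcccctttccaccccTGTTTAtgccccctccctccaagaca
The Themis window shown held 1 E-box and none of the other 3 letter strings. A second Themis window, chr10:28668145-28668444, overlaps it and held none of the letter strings. The Lat window held 1 Runx, 2 ETS and 1 E-box match, and the Cd5 window held 2 ETS, 2 E-box and 1 forkhead match. No matches overlapped. Of 32851 promoter windows of this length, 16.8% held the Runx letters, 35.4% the ETS letters, 51.4% an E-box and 13.4% the forkhead letters. A match describes letters only.

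The 3 CD3 chains coded side by side on chromosome 9 were among the brightest members, and none was called between any gates. Cd3e, whose chain pairs with both CD3 delta and CD3 gamma, had levels of 11.66, 11.71, 11.69 and 11.57 in CD25+CD49f+ cells and of 11.70, 11.82, 11.52, 11.62 and 11.59 in CD25+CD49f- cells. In CD25-CD49f+ cells its lowest, median and highest levels were 11.53, 11.66 and 11.92, and in CD25-CD49f- cells they were 11.46, 11.60 and 12.22. The gates overlapped, and the 6 pairwise Cd3e differences lay between -0.04 and 0.01. Cd3d averaged 11.92 ± 0.03, 11.86 ± 0.19, 11.94 ± 0.06 and 12.04 ± 0.10 in CD25+CD49f+, CD25+CD49f-, CD25-CD49f+ and CD25-CD49f- cells (SD, n = 4, 5, 7 and 7). Cd3g averaged 11.70 ± 0.02, 11.58 ± 0.27, 11.84 ± 0.16 and 11.82 ± 0.16 in that order. Neither was called: for CD25 within CD49f- cells the log2 differences were -0.17 ± 0.07 for Cd3d (SE, limma adjusted p = 0.147) and -0.24 ± 0.10 for Cd3g (limma adjusted p = 0.144). In 1 of 40 alternative fits of that comparison, with cyclic loess normalization, Cd3d was called lower (-0.20, limma adjusted p = 0.0269). CD25+CD49f- replicate 5 was the lowest of all 23 arrays for both, at 11.56 for Cd3d and 11.12 for Cd3g.

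Cd247 codes the zeta chain, which carries most of the complex's tyrosine motifs. Its levels were 10.24, 10.38, 10.39 and 10.23 in CD25+CD49f+ cells and 10.50, 10.56, 10.24, 10.32 and 9.26 in CD25+CD49f- cells. The lowest, median and highest were 10.48, 10.51 and 10.60 in CD25-CD49f+ cells and 10.22, 10.72 and 10.83 in CD25-CD49f- cells. All CD25+CD49f+ arrays lay below all CD25-CD49f+ arrays, by a mean log2 difference of -0.22 ± 0.16 that was not called (SE, limma adjusted p = 0.711). Cd247 was called lower in CD25+CD49f- cells than in the CD25-CD49f- gate (-0.46 ± 0.15, limma adjusted p = 0.0399). Without CD25+CD49f- replicate 5, the array with the Actb difference of 4.83, the Cd247 difference was -0.23 (limma adjusted p = 0.123), and the call was also lost on leaving out CD25+CD49f- replicate 3 or any of CD25-CD49f- replicates 2 to 6, with adjusted p between 0.0568 and 0.0787. The part of RNA quality in the Cd247 difference was not tested beyond the fit with the Actb difference as a covariate, which gave -0.27 (limma adjusted p = 0.106).

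A second Cd247 probe set, 1452539_a_at, read 6.40 to 7.48 in CD25+CD49f- cells apart from 4.27 on replicate 5, and its difference from CD25-CD49f- cells was not called (-0.75 ± 0.45, limma adjusted p = 0.412 over all probe sets). The other 2 Cd247 probe sets averaged between 4.92 and 5.95 in every gate and their levels did not follow the bright probe set, with r of -0.34 and -0.17 over the 23 arrays. Fitted among all 45101 probe sets, the bright Cd247 probe set had the same difference with a limma adjusted p of 0.0562.

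Cd4, the co-receptor that binds MHC class II and brings Lck to the complex, was called lower with CD25 in both CD49f gates. Its levels were 9.06, 9.10, 9.13 and 9.20 in CD25+CD49f+ cells and 9.39, 9.44, 9.38, 9.44 and 9.33 in CD25+CD49f- cells. The lowest, median and highest were 9.39, 9.49 and 9.88 in CD25-CD49f+ cells and 9.52, 9.61 and 10.09 in CD25-CD49f- cells. Every CD25+CD49f+ array was below every array of the other 3 gates, and every CD25+CD49f- array was below every CD25-CD49f- array. Cd4 was called lower in CD25+CD49f+ cells than in the CD25-CD49f+ gate (-0.41 ± 0.10, limma adjusted p = 0.00943), in CD25+CD49f- cells than in the CD25-CD49f- gate (-0.28 ± 0.09, limma adjusted p = 0.0363) and in CD25+CD49f+ cells than in the CD25-CD49f- gate (-0.56 ± 0.10, limma adjusted p = 1.56e-04). For CD49f within CD25+ cells the Cd4 difference of -0.27 ± 0.11 was not called (limma adjusted p = 0.389), although the gates did not overlap. Without the 4 arrays that stood apart it was -0.29 (limma adjusted p = 0.00843).

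Within CD49f- cells the Cd4 difference was -0.13 (limma adjusted p = 0.328) with each array centred on its mean of Cd3d, Cd3e and Cd3g, and the call was also lost with the fixed replicate block, quantile or cyclic loess normalization, array weights, robust trended eBayes or the Actb covariate, with adjusted p between 0.0508 and 0.0964. It was lost without the 4 arrays that stood apart (-0.17, limma adjusted p = 0.0597), and on leaving out any single CD25+CD49f- array or CD25-CD49f- replicate 1 or 7, with adjusted p between 0.0531 and 0.0753. The Cd4 call within CD49f+ cells held on leaving out any single array, and was lost with cyclic loess or quantile normalization (limma adjusted p = 0.0695 and 0.0633). It was also lost in both subsets of arrays by Y-linked and Xist transcripts, in which fewer arrays enter. Over 40 alternative fits it was called in 36, and the highest limma adjusted p was 0.751. The dimmer Cd4 probe set, 1427779_a_at, averaged 5.14, 5.21, 5.45 and 5.56 in CD25+CD49f+, CD25+CD49f-, CD25-CD49f+ and CD25-CD49f- cells, the same order of means, with no call.

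Zap70, the kinase that phosphorylates Lat, did not separate the gates. Its levels were 9.57, 9.71, 9.83 and 9.81 in CD25+CD49f+ cells and 9.74, 9.87, 9.56, 9.66 and 8.80 in CD25+CD49f- cells. The lowest, median and highest were 9.70, 9.82 and 10.04 in CD25-CD49f+ cells and 9.04, 9.64 and 10.03 in CD25-CD49f- cells. All 4 gates overlapped, and the 2 lowest arrays, CD25+CD49f- replicate 5 and CD25-CD49f- replicate 1, were those with the largest Actb 3' minus 5' differences. The largest of its pairwise differences, between the CD25+CD49f- gate and the CD25-CD49f+ gate, was -0.31 ± 0.15 (SE, limma adjusted p = 0.276). Its 3 probe sets did not track each other over the 23 arrays, with r of -0.38, -0.38 and 0.19, and none of the 3 was called between any gates.

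Lat is the scaffold on which Plcg1, Grb2-family adaptors and Lcp2 assemble. Its levels were 10.55, 10.57, 10.78 and 10.62 in CD25+CD49f+ cells and 10.65, 10.78, 10.67, 10.63 and 10.53 in CD25+CD49f- cells. The lowest, median and highest were 10.79, 10.86 and 11.26 in CD25-CD49f+ cells and 10.69, 10.96 and 11.46 in CD25-CD49f- cells. No CD25+ array of either gate reached the lowest CD25-CD49f+ array, while both CD25+ gates overlapped with CD25-CD49f- cells. Lat was called lower than in CD25-CD49f- cells both in CD25+CD49f- (-0.34 ± 0.10, limma adjusted p = 0.0253) and in CD25+CD49f+ cells (-0.37 ± 0.11, limma adjusted p = 0.0271). For CD25 within CD49f+ cells the Lat difference of -0.30 ± 0.11 was not called (limma adjusted p = 0.163), and without the 4 arrays that stood apart it was -0.24 (limma adjusted p = 0.0477). The CD49f- call of Lat was lost with CD3 centring (-0.19, limma adjusted p = 0.137), the fixed replicate block (limma adjusted p = 0.0661) and the Actb covariate (limma adjusted p = 0.0603). It was also lost without those 4 arrays (-0.23, limma adjusted p = 0.0553), and on leaving out CD25+CD49f- replicate 1, 4 or 5 or CD25-CD49f- replicate 3, with adjusted p between 0.0504 and 0.0651.

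Themis, the adaptor of thymocyte selection, separated the CD25+ gates from the CD25- gates on every array. Its levels were 7.45, 7.66, 7.27 and 7.32 in CD25+CD49f+ cells and 8.0, 8.19, 7.78, 7.89 and 8.14 in CD25+CD49f- cells. The lowest, median and highest were 8.80, 8.96 and 9.07 in CD25-CD49f+ cells and 8.82, 9.22 and 9.33 in CD25-CD49f- cells. Every CD25+CD49f+ array was below every CD25+CD49f- array, and every CD25+ array was below every CD25- array, while the 2 CD25- gates overlapped. The mean was 7.43 ± 0.17 in CD25+CD49f+, 8.0 ± 0.17 in CD25+CD49f-, 8.95 ± 0.08 in CD25-CD49f+ and 9.17 ± 0.17 in CD25-CD49f- cells (SD, n = 4, 5, 7 and 7).

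Themis fell with CD25 within CD49f+ cells (-1.52 ± 0.10, limma adjusted p = 7.10e-11) and within CD49f- cells (-1.17 ± 0.09, limma adjusted p = 3.25e-10). Both differences were called in all 40 alternative fits, with ranges of -1.60 to -1.40 and -1.26 to -1.01. Within CD25+ cells Themis was lower in CD25+CD49f+ cells than in the CD25+CD49f- gate (-0.57 ± 0.10, limma adjusted p = 0.00148). For CD49f within CD25- cells the difference was -0.22 ± 0.08 and was not called (limma adjusted p = 0.0966), and without CD25-CD49f- replicate 7 it was -0.27 (limma adjusted p = 0.0125). The test of the difference between these 2 CD49f differences, the interaction, gave -0.36 ± 0.13 (limma adjusted p = 0.157), so the CD49f differences of Themis were not shown to differ between CD25+ and CD25- cells.

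The 3 further Themis probe sets were called lower with CD25 and not called for CD49f within CD25+ cells, in a fit over all 45101 probe sets that called 3.23% for CD25 within CD49f+ cells, 9.94% for CD25 within CD49f- cells, 1.11% for CD49f within CD25+ cells and 9.83% for CD49f within CD25- cells. Within CD49f+ cells they were lower in CD25+CD49f+ cells than in the CD25-CD49f+ gate, at -1.62 ± 0.20, -1.18 ± 0.19 and -1.27 ± 0.22 for 1439719_at, 1442022_at and 1443192_at, and the largest limma adjusted p over all probe sets was 7.35e-04. Within CD49f- cells they were lower in CD25+CD49f- cells than in the CD25-CD49f- gate, at -1.12 ± 0.19, -0.72 ± 0.18 and -1.79 ± 0.21, and the largest adjusted p was 0.00744. Within CD25+ cells the same 3 gave -0.33 ± 0.22, -0.07 ± 0.20 and -0.26 ± 0.24, and none of them was called. Averaging the 4 probe sets gave -0.31 (limma adjusted p = 0.336) for CD25+CD49f+ against CD25+CD49f- cells. Within CD25- cells the further probe sets disagreed in sign: 1443192_at was called lower in CD25-CD49f+ cells than in the CD25-CD49f- gate (-0.78 ± 0.19, limma adjusted p = 0.00701), whereas 1442022_at and 1439719_at gave 0.39 ± 0.16 and 0.18 ± 0.17 with no call. The 3 further probe sets read 5.26 to 6.5 in CD25+ cells.

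**Figure D2:**
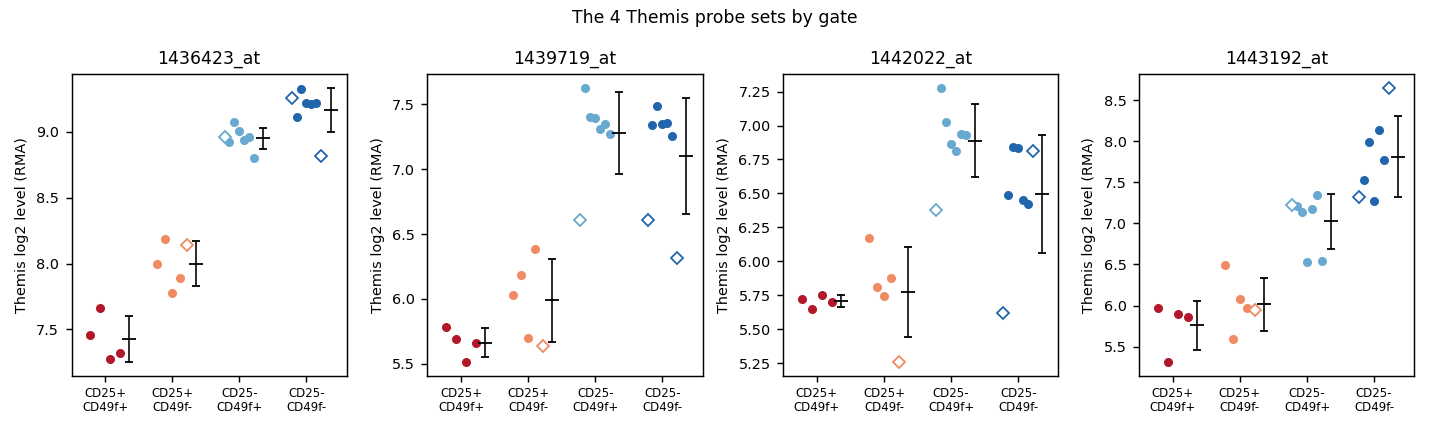
Log2 RMA levels of the 4 Themis probe sets (vertical axes) in the 4 gates (horizontal axes); points are arrays, open diamonds the 4 arrays that stood apart, bars the mean with 1 SD. All 4 panels show lower means in both CD25+ gates than in both CD25- gates, and only 1436423_at separates CD25+CD49f+ from CD25+CD49f- cells.

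Themis was also read within arrays of like Xist and Y-linked transcripts. In arrays without Y-linked transcripts the difference for CD49f within CD25+ cells was -0.53 (limma adjusted p = 0.148), and in arrays with Y-linked transcripts and without Xist it was -0.54 (limma adjusted p = 0.376). The size was close to that over all arrays, with fewer arrays in each fit. The CD25 differences of Themis were called in both subsets.

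Cd5, the receptor that dampens the signal, was the one member called higher between any gates. Its levels were 10.87, 10.89, 11.11 and 11.13 in CD25+CD49f+ cells and 11.10, 11.07, 10.87, 11.28 and 9.94 in CD25+CD49f- cells. The lowest, median and highest were 10.65, 10.84 and 11.10 in CD25-CD49f+ cells and 10.24, 10.42 and 10.73 in CD25-CD49f- cells. All CD25+CD49f+ arrays lay above all CD25-CD49f- arrays, and apart from the level of 9.94 on replicate 5 so did all CD25+CD49f- arrays. Cd5 was called higher in CD25+CD49f+ cells than in the CD25-CD49f- gate (0.54 ± 0.16, limma adjusted p = 0.0255). The alternative fits did not cover this comparison, apart from the fit over all probe sets (limma adjusted p = 0.0375). The differences of 0.39 ± 0.15 for CD25 within CD49f- cells (limma adjusted p = 0.0959) and of 0.38 ± 0.14 for CD49f within CD25- cells (limma adjusted p = 0.0761) were not called.

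Both of these uncalled Cd5 differences passed the threshold when a single array was left out. Without CD25+CD49f- replicate 5 the Cd5 difference for CD25 within CD49f- cells was 0.62 (limma adjusted p = 6.64e-05), and that for CD49f within CD25- cells was 0.38 (limma adjusted p = 0.00252). The array left out is in neither gate of the latter comparison, whose difference did not change. It enters there only through the spread estimated over all 4 gates. With the Actb difference entered as a covariate the Cd5 differences were 0.61 (limma adjusted p = 3.73e-05) and 0.29 (limma adjusted p = 0.0194). The Cd5 interaction was -0.23 ± 0.22 (limma adjusted p = 0.755) over all arrays and -0.45 (limma adjusted p = 0.045) without the 4 arrays that stood apart.

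**Figure D3:**
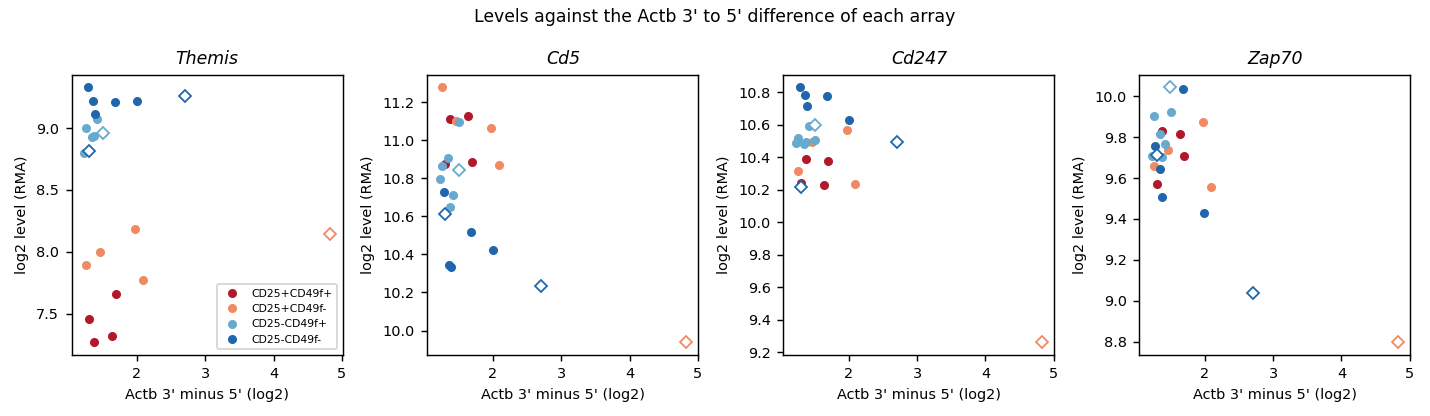
Log2 RMA levels of Themis, Cd5, Cd247 and Zap70 (vertical axes) against the Actb 3' minus 5' probe set difference of the same array (horizontal axes, log2); colours are gates and open diamonds the 4 arrays that stood apart. CD25+CD49f- replicate 5, at 4.83, is the lowest array for Cd5, Cd247 and Zap70, whereas its Themis level of 8.14 lies among the other arrays of its gate.

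For CD49f within CD25+ cells 1 of 9 members was called, Themis, lower, where 1.82% of all genes were called, 0.352% higher and 1.47% lower. For CD49f within CD25- cells no member was called by limma, where 13.4% of all genes were, 8.01% higher and 5.42% lower, and 2 members had an unadjusted p under 0.05. For CD25 within CD49f+ cells 2 of 9 were called, Themis and Cd4, both lower, where 5.72% of all genes were called, 2.81% higher and 2.91% lower. For CD25 within CD49f- cells 4 of 9 were called, Themis, Cd4, Lat and Cd247, all lower, where 14.0% of all genes were called, 9.34% higher and 4.68% lower. That split depended on the setting: with CD3 centring, with the Actb covariate, in arrays without Y-linked transcripts or without CD25+CD49f- replicate 5, 1 member was called higher, Cd5, and 1 lower, Themis. With array weights 1 was higher and 3 lower, and without the 4 arrays that stood apart 1 was higher and 2 lower, with Cd5 the higher one in both. The median difference of the 9 members in that comparison was -0.24, against -0.01 for all genes. Each gate enters more than 1 comparison, so these counts share arrays. For the interaction no member was called by limma, where 5.31% of all genes were, 0.984% higher and 4.33% lower, and 1 member, Themis, had an unadjusted p under 0.05.

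**Figure D4:**
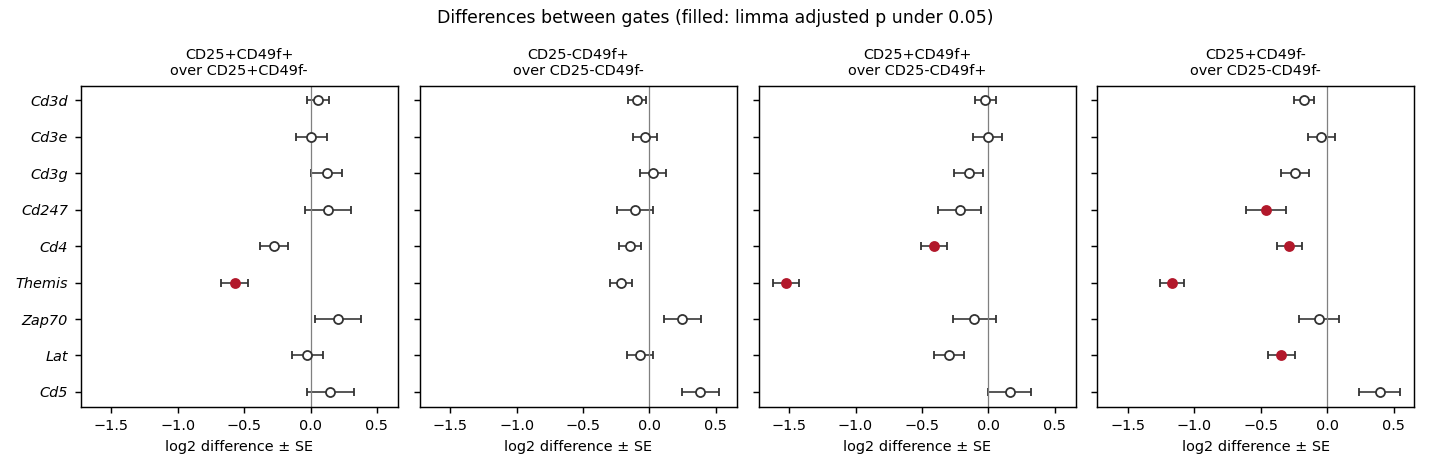
Log2 differences (horizontal axes) of the 9 members with their standard errors in the 4 comparisons, with the gate named first over the gate named second; filled points have a limma adjusted p under 0.05. Themis is filled in 3 of the 4 panels, at -0.57, -1.52 and -1.17, and every filled point lies below 0.

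Across the remaining pairs of gates, 4 of 9 members were called between the CD25+CD49f+ gate and the CD25-CD49f- gate, with Themis, Cd4 and Lat lower and Cd5 higher, where 13.2% of all genes were called, 7.63% higher and 5.53% lower. Between the CD25+CD49f- gate and the CD25-CD49f+ gate only Themis was called among the 9 (-0.95 ± 0.09, limma adjusted p = 2.68e-08), where 8.86% of all genes were, 5.23% higher and 3.63% lower. Groups that did not overlap numbered 2, 0, 4 and 2 of 9 members for CD25+CD49f+ over CD25+CD49f-, CD25-CD49f+ over CD25-CD49f-, CD25+CD49f+ over CD25-CD49f+ and CD25+CD49f- over CD25-CD49f-, against 4.67%, 5.78%, 8.22% and 8.1% of all genes. They numbered 3 of 9 between the CD25+CD49f+ gate and the CD25-CD49f- gate and 2 of 9 between the CD25+CD49f- gate and the CD25-CD49f+ gate, against 10.7% and 7.31% of all genes. In the order of the 4 gate means, neighbours differed for Themis alone, with CD25-CD49f+ above CD25+CD49f- and CD25+CD49f- above CD25+CD49f+. For Cd4 the order was CD25-CD49f-, CD25-CD49f+, CD25+CD49f- and CD25+CD49f+ from high to low, and no neighbouring pair was called.

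Some other transcripts moved with the gates. The 5 regulatory T cell markers (Foxp3, Il2ra, Ikzf2, Ctla4 and Tnfrsf18) were called higher in every CD25 comparison and, within CD25- cells, in CD25-CD49f+ cells. Their summed log2 level ranged from 13.1 to 13.4 in CD25+CD49f+, 12.8 to 13.3 in CD25+CD49f-, 12.1 to 12.4 in CD25-CD49f+ and 10.01 to 10.4 in CD25-CD49f- cells. The summed markers of dendritic and myeloid cells had their highest medians in CD25-CD49f- cells. All 7 plasmacytoid dendritic markers and 7 of 14 conventional dendritic and myeloid markers were called lower in CD25-CD49f+ cells than in the CD25-CD49f- gate. The summed level of the plasmacytoid markers ranged from 9.46 to 10.02 in CD25-CD49f+ cells and from 10.03 to 11.7 in CD25-CD49f- cells, and that of the conventional and myeloid markers from 11.9 to 12.5 and from 12.3 to 14.0 in the same gates. In CD25+CD49f+ cells 5 of the 14 conventional and myeloid markers were called lower than in CD25+CD49f- cells. The 14 summed to 11.3 to 12.3 in CD25+CD49f+ and 12.7 to 12.9 in CD25+CD49f- cells. The wide gaps were in the MHC class II genes H2-Aa (means of 9.13 and 10.83 in those gates), H2-Ab1, H2-Eb1 and Cd74, and in Fcer1g (6.2 and 8.2). The means of Itgax (6.22 and 6.16), Csf1r (7.78 and 7.73) and Lyz2 (8.83 and 8.55) were not lower in CD25+CD49f+ cells. For CD25 within CD49f- cells 1 of the 7 plasmacytoid markers was called higher and 3 lower. The one higher was Ccr9, a chemokine receptor that T cells can also carry, at means of 8.67 in CD25+CD49f- and 7.83 in CD25-CD49f- cells. The 3 lower were Siglech, Klra17 and Spib, and the defining marker Siglech averaged 5.76 in CD25+CD49f- and 7.09 in CD25-CD49f- cells. Their part in the differences of the members was not tested. The 9 CD4 T cell identity markers, which include the members Cd3d, Cd3e, Cd3g and Cd4, summed to 14.3 on every CD25+CD49f+ array, 13.96 to 14.37 on CD25+CD49f-, 14.26 to 14.50 on CD25-CD49f+ and 14.38 to 14.57 on CD25-CD49f- arrays.

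The wider receptor pathway was read on 90 measured genes in 7 lists of roles, which leave the members out. For CD49f within CD25+ cells 1 of the 90 was called (1.11%), against 1.82% of all genes. For CD49f within CD25- cells 14 were higher and 3 lower (18.9%, against 13.4% of all genes). For CD25 within CD49f+ cells 3 were higher and 9 lower (13.3%, against 5.72%). For CD25 within CD49f- cells 14 were higher and 23 lower (41.1%, against 14.0%). The direction of that last split changed with each array centred on its Cd3d, Cd3e and Cd3g mean, where 21 were higher and 12 lower. The split over all genes was then 2783 higher and 475 lower, against 1699 and 852. That centring moved the median difference of all genes to 0.14. With median centring, quantile and cyclic loess normalization the median was 0.0007, -0.0094 and 0.0004. CD25+CD49f- replicate 5 was the lowest array for Cd3d and Cd3g, and its part in the shift was not tested.

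**Figure D5:**
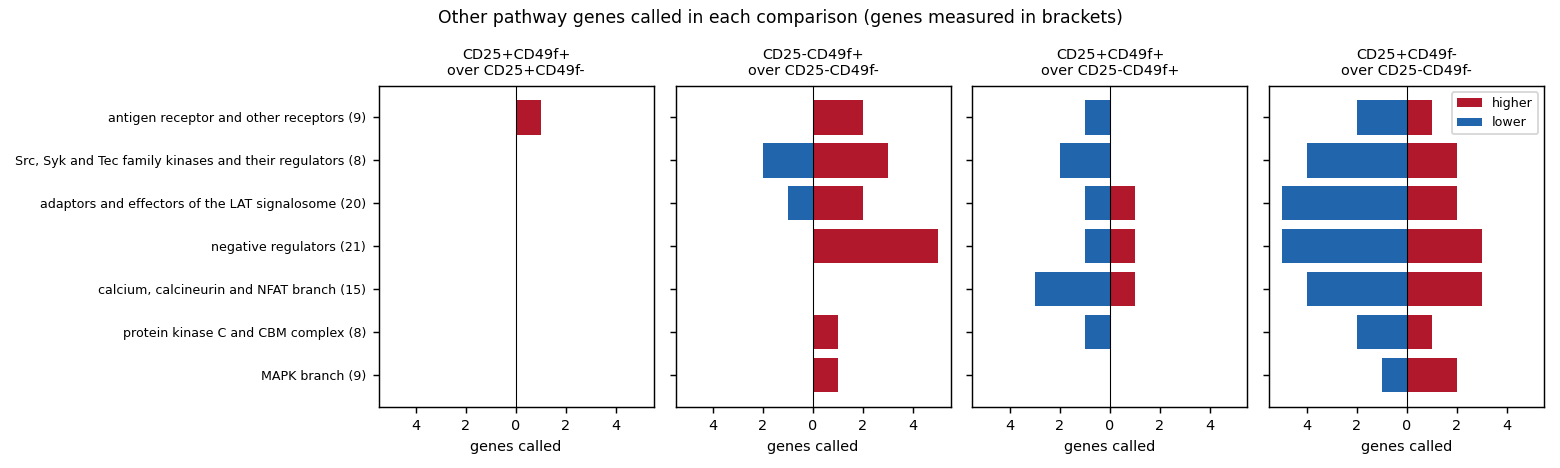
Number of pathway genes called higher (right of 0) or lower (left of 0) per list in the 4 comparisons, with the gate named first over the gate named second and the number of genes measured in brackets. Calls are most frequent for CD25+CD49f- over CD25-CD49f- cells. There 6 of the 8 genes listed as Src, Syk and Tec family kinases and their regulators were called (75.0%, against 14.0% of all genes).

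Among receptors, 3 of 9 genes were called for CD25 within CD49f- cells (33.3%, against 14.0% of all genes). The listed Tcrb was read only as Trbv13-2, the name of a beta chain variable segment, and the constant segments Trbc1 and Trbc2 were not measured. Its values may therefore not stand for the whole beta chain. Trbv13-2 was higher for CD25 within CD49f- cells (0.31 ± 0.09, SE, limma adjusted p = 0.0246). Against CD25-CD49f- cells it was also higher in CD25-CD49f+ (0.39 ± 0.09, limma adjusted p = 0.00191) and CD25+CD49f+ cells (0.41 ± 0.10, limma adjusted p = 0.00611). Slamf6, a SLAM family receptor that signals through SAP, averaged 10.27 ± 0.12 in CD25+CD49f+, 9.68 ± 0.35 in CD25+CD49f-, 10.99 ± 0.20 in CD25-CD49f+ and 10.34 ± 0.31 in CD25-CD49f- cells (SD, n = 4, 5, 7 and 7). It fell with CD25 in both CD49f gates, at -0.73 ± 0.16 within CD49f+ cells (limma adjusted p = 0.00352) and at -0.66 ± 0.15 within CD49f- cells (limma adjusted p = 0.00183), and was higher in CD25-CD49f+ cells than in the CD25-CD49f- gate (0.65 ± 0.13, limma adjusted p = 9.82e-04). Cd28, the co-stimulatory receptor, was the single pathway gene called within CD25+ cells, higher in CD25+CD49f+ (0.51 ± 0.13, limma adjusted p = 0.0495), and fell in CD25+CD49f- against CD25-CD49f- cells (-0.37 ± 0.12, limma adjusted p = 0.0323). Within CD25+ cells the pathway count fell to 0 in 17 of the 23 fits that each left out 1 array, and with either replicate block, median centring or robust trended eBayes, so the Cd28 call there rests on the setting.

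The list of Src, Syk and Tec family kinases and their regulators held 8 measured genes. Of these, 3 were higher and 2 lower in CD25-CD49f+ cells than in the CD25-CD49f- gate (62.5%, against 13.4% of all genes). In CD25+CD49f- cells 2 were higher and 4 lower than in the CD25-CD49f- gate (75.0%, against 14.0% of all genes). Tec, a Tec family kinase, averaged 7.20 ± 0.29 in CD25+CD49f+, 7.65 ± 0.20 in CD25+CD49f-, 7.70 ± 0.05 in CD25-CD49f+ and 8.75 ± 0.24 in CD25-CD49f- cells. Every CD25-CD49f- array, from 8.36 upwards, was above every array of the other gates, and Tec was lower, at -1.05 ± 0.11 in CD25-CD49f+ cells (limma adjusted p = 4.26e-08) and at -1.11 ± 0.12 in CD25+CD49f- cells (limma adjusted p = 7.26e-08). Syk, the Zap70 relative more typical of B and myeloid cells, was lower in the same 2 comparisons, at -0.79 ± 0.19 and -0.95 ± 0.21 (limma adjusted p = 0.00517 and 0.00182); 7 and 3 of the 14 conventional dendritic and myeloid markers were called lower in those comparisons, and their part was not tested. In the comparison with 3 lower, 1 of the 14 was called higher, Fcer1g, at means of 8.20 in CD25+CD49f- and 7.29 in CD25-CD49f- cells. Unc119, an activator of Lck and Fyn, was higher by 0.87 ± 0.10 and 1.09 ± 0.11 in those comparisons (limma adjusted p = 2.12e-07 and 1.54e-08). Fyn, the other Src family kinase of the receptor, was higher in CD25-CD49f+ cells than in the CD25-CD49f- gate by 0.34 ± 0.08 (limma adjusted p = 0.0019). Pag1, the membrane adaptor that brings Csk to Src kinases, fell with CD25 within CD49f+ cells (-0.59 ± 0.14, limma adjusted p = 0.0112) and within CD49f- cells (-0.68 ± 0.14, limma adjusted p = 6.02e-04).

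Of the 20 adaptors and effectors around Lat, 2 were higher and 1 lower in CD25-CD49f+ cells than in the CD25-CD49f- gate (15.0%, near the 13.4% of all genes). In CD25+CD49f- cells 2 were higher and 5 lower than in the CD25-CD49f- gate (35.0%, against 14.0% of all genes). Rasgrp1, the exchange factor that activates Ras in T cells, was lower in both, at -0.54 ± 0.07 and -0.36 ± 0.08 (limma adjusted p = 5.90e-06 and 0.00199). Grap2, the Gads adaptor that links Lat to Lcp2, fell with CD25 in both CD49f gates (-0.37 ± 0.10 and -0.51 ± 0.10, limma adjusted p = 0.0301 and 4.15e-04), as a dim probe set of means between 5.89 and 6.48. Plcg1, the phospholipase that starts the calcium branch, was lower in CD25+CD49f- cells than in the CD25-CD49f- gate (-0.31 ± 0.07, limma adjusted p = 0.0023). Lcp2, the SLP-76 adaptor, was higher in CD25-CD49f+ cells than in the CD25-CD49f- gate (0.34 ± 0.11, limma adjusted p = 0.0396).

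Negative regulators other than Cd5 gave calls in both directions. In CD25-CD49f+ cells 5 of 21 were higher than in CD25-CD49f- cells and none was lower, with 16 not called (23.8% called, against 13.4% of all genes). Dok2, an adaptor that restrains Ras, averaged 9.18 ± 0.13 in CD25+CD49f+, 9.30 ± 0.09 in CD25+CD49f-, 9.41 ± 0.07 in CD25-CD49f+ and 8.60 ± 0.14 in CD25-CD49f- cells (SD, n = 4, 5, 7 and 7). All arrays of the other 3 gates were above the highest CD25-CD49f- array of 8.86. Sla, an adaptor that lowers receptor complex levels, was higher in CD25-CD49f+ cells than in the CD25-CD49f- gate by 0.84 ± 0.13 (limma adjusted p = 2.97e-05). Rnf128, a ubiquitin ligase of anergic T cells, was higher there by 0.62 ± 0.10 (limma adjusted p = 3.82e-05), at a mean of 5.99 against 5.37. In CD25+CD49f- cells 3 of the 21 were higher and 5 lower than in CD25-CD49f- cells (38.1%, against 14.0% of all genes). Those lower included Ptpn6, which codes Shp1 (-0.36 ± 0.09, limma adjusted p = 0.00571), and Dgka, the diacylglycerol kinase (-0.70 ± 0.15, limma adjusted p = 0.00157).

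Of 15 genes of the calcium and NFAT branch none was called by limma for CD49f within CD25- cells, 4 were called for CD25 within CD49f+ cells and 7 for CD25 within CD49f- cells. These were 0.0%, 26.7% and 46.7%, against 13.4%, 5.72% and 14.0% of all genes. Stim1, the calcium sensor of the endoplasmic reticulum, fell with CD25 in both CD49f gates (-0.61 ± 0.17 and -0.65 ± 0.16, limma adjusted p = 0.0278 and 0.00444), and so did Nfatc3 (-0.46 ± 0.11 and -0.35 ± 0.11, limma adjusted p = 0.0125 and 0.0236). Nfat5, which responds to osmotic stress, rose with CD25 in both (0.51 ± 0.11 and 0.51 ± 0.10, limma adjusted p = 0.00354 and 7.46e-04). Orai2, a calcium channel subunit, was lower in CD25+CD49f- cells than in the CD25-CD49f- gate (-0.91 ± 0.19, limma adjusted p = 0.00125). Of 8 genes of protein kinase C and the CBM complex, Malt1 was the one called for CD25 within CD49f+ cells, lower (-0.73 ± 0.17, limma adjusted p = 0.0062). That was 12.5%, against 5.72% of all genes.

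Gadd45b, an activator of the p38 pathway that antigen receptor signals induce, gave the largest difference of the 9 MAPK genes. It averaged 8.96 ± 0.36 in CD25+CD49f+, 9.10 ± 0.34 in CD25+CD49f-, 8.64 ± 0.18 in CD25-CD49f+ and 7.09 ± 0.21 in CD25-CD49f- cells (SD, n = 4, 5, 7 and 7). All arrays of the other gates lay above the highest CD25-CD49f- array of 7.40, and Gadd45b was higher by 1.54 ± 0.13 in CD25-CD49f+ (limma adjusted p = 2.17e-09) and by 2.0 ± 0.14 in CD25+CD49f- cells (limma adjusted p = 7.94e-11). For 5 of the 90 pathway genes, 5.56% against 5.31% of all genes, the CD49f difference itself differed between CD25+ and CD25- cells.

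The genes whose levels were most like those of a called member were found by Pearson's r over the 23 arrays, which fall into 4 gates, so r holds the differences between gates as well as those within them. For Themis they were Sema4a (r = 0.964), Fasl (r = 0.956) and Pde3b (r = 0.956). For Cd4 they were Gpsm3 (r = 0.922), Arrb2 (r = 0.905) and Gpr132 (r = 0.904), and for Lat they were Sit1 (r = 0.941), Irf7 (r = 0.922) and Sh2d3c (r = 0.920). For Cd5 they were Rhoh (r = 0.936), Mnat1 (r = 0.919) and Fbxo6 (r = 0.916), and for Cd247 they were Slc36a1 (r = 0.919), Cd53 (r = 0.913) and Gimap6 (r = 0.908). CD25+CD49f- replicate 5 was the lowest array for both Cd5 (9.94) and Cd247 (9.26), and r without that array was not computed. Sit1, a transmembrane adaptor of the receptor pathway, is also on the list of negative regulators.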

How the data were processed

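Total RNA of sorted mouse CD4+ T cells was measured on 23 Affymetrix arrays. The deposited values are log2 expression per probe set, made with RMA per the submitters' processing notes, with no version named. All array columns were used. Of the probe sets, 34958 named 1 gene, 932 several and 9211 none, and symbols were updated through the Entrez identifier for 34754. Each gene was read from its single-gene probe set of highest mean, leaving 18194 genes. One linear model with the 4 gate means was fitted over all genes (limma 3.58.1, R 4.3.3), with Benjamini-Hochberg adjustment over all of them. All 45101 probe sets were fitted likewise.

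Named pathway genes were taken from the up to 3 called genes of smallest p per list, comparison and direction. Not every such gene is named, and those left out went in both directions, such as Shb and Vav3 (higher) and Rasal3 and Nfatc2 (lower). The members, the pathway lists and the marker lists were chosen with earlier results of these data known. Other scalings, gene summaries, weights, blocks and thresholds, and each array left out, were tried; the fits without the 4 arrays that stood apart, by Y-linked and Xist transcripts and with the Actb covariate were chosen after seeing the data. Comparisons in which both markers differ (CD25+CD49f+ against CD25-CD49f-, and CD25+CD49f- against CD25-CD49f+) were left out of these alternatives, apart from the fit over all probe sets. No pair of arrays held identical values. The fit was tested on simulated data.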

Additional observations from a re-analysis of the deposited data

Results flagged for a closer look

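Of 72 groups of arrays, 1 per member probe set and gate, 9 held an outlying array, by the gap to the nearest array over the whole range, and 8 of the 9 were arrays that stood apart by correlation. Chance flags about 1 in 20 such groups. Cd247 read 9.2628 on CD25+CD49f- replicate 5, with the other arrays of the gate at 10.236 to 10.5649. On CD25-CD49f+ replicate 1, Cd3g read 12.1624 (others 11.7046 to 11.8687), Cd4 read 9.8825 (others 9.3884 to 9.5705) and Themis probe set 1439719_at read 6.6055 (others 7.2733 to 7.6265). On CD25-CD49f- replicate 7, Cd3e read 12.2165 (others 11.462 to 11.7525), Themis read 8.8181 (others 9.1135 to 9.3292) and Zap70 probe set 1440178_x_at read 8.6393 (others 9.2498 to 9.6834). Themis probe set 1442022_at read 5.6159 on CD25-CD49f- replicate 1 (others 6.4221 to 6.8446). Themis probe set 1443192_at read 5.3158 on CD25+CD49f+ replicate 2 (others 5.858 to 5.9652), the one outlying array that did not stand apart.

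For 5 pathway genes the CD49f difference within CD25+ cells differed from that within CD25- cells, by limma's interaction term. The interaction was -1.6748 for Gadd45b (adjusted p = 5.3e-06), -1.2404 for Unc119 (adjusted p = 4.4e-06), -0.9388 for Dok2 (adjusted p = 1.4e-06), -0.7251 for Rnf128 (adjusted p = 0.00403) and 0.608 for Tec (adjusted p = 0.0339), all on the log2 scale.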

How the results depend on the processing

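Of 1791 member differences under alternatives, 1700 kept their side of the threshold, 54 lost a call, 25 gained one and 12 that were not called moved by more than the SD between replicates. Of the called differences 0 reversed, and 97 that were not called changed sign. Counts below are given in the order CD49f within CD25+ cells, CD49f within CD25- cells, CD25 within CD49f+ cells, CD25 within CD49f- cells and interaction where all 5 are listed, and are 1, 0, 2, 4 and 0 members, 1, 17, 12, 37 and 5 pathway genes and 332, 2443, 1040, 2551 and 966 genes in the reported fit. Leaving out 1 array gave 1 to 1, 0 to 1, 2 to 2, 2 to 4 and 0 to 0 members, 0 to 6, 14 to 24, 5 to 15, 28 to 43 and 4 to 8 pathway genes, and 257 to 432, 2126 to 2720, 785 to 1325, 2245 to 2768 and 773 to 1128 genes. For CD25 within CD49f- cells, 2 members were called without CD25-CD49f- replicate 3 or CD25+CD49f- replicate 1, 3, 4 or 5, all lower except Cd5 without CD25+CD49f- replicate 5.

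For CD49f within CD25+ cells, pathway calls were 0 with the fixed replicate block, the random replicate block, median centring, robust trended eBayes, every probe set, only the 2 groups compared, an adjusted p under 0.01, arrays without Y-linked transcripts or arrays with them and without Xist. They were 2 with the mean of a gene's probe sets, 8 with array weights and 6 without the 4 arrays that stood apart. Member calls there were 0 with the mean of the probe sets and in both Y-linked subsets, and 2 with array weights or without the 4 arrays. All-gene calls there were 500 over every probe set, 203 in the brighter part of the genes, 762 with array weights, 211 at the stricter threshold, 119 without and 92 with Y-linked transcripts, and 588 without the 4 arrays.

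For CD49f within CD25- cells, 1 member was called with quantile or cyclic loess normalization, with CD3 centring, with the Actb covariate or in the fit of only those 2 groups, 2 with array weights and 3 without the 4 arrays. Pathway calls were 38 with array weights, 36 without the 4 arrays, and 11 without and 9 with Y-linked transcripts. All-gene calls were 4432 over every probe set, 3742 with array weights, and 1340 without and 1080 with Y-linked transcripts.

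For CD25 within CD49f+ cells, 1 member was called with quantile or cyclic loess normalization and in both Y-linked subsets, and 4 with array weights. Pathway calls were 7 with CD3 centring, 30 with array weights, 4 at the stricter threshold, 26 without the 4 arrays, and 3 without and 0 with Y-linked transcripts. All-gene calls were 3083 with array weights, 675 at the stricter threshold, 2361 without the 4 arrays, and 493 without and 264 with Y-linked transcripts.

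For CD25 within CD49f- cells, 2 members were called with CD3 centring, with the Actb covariate, with the fixed replicate block or without Y-linked transcripts (Cd5 higher and Themis lower, except 0 higher and 2 lower with the block), and 1 at the stricter threshold, in the fit of only those 2 groups or with Y-linked transcripts. Pathway calls were 20 at the stricter threshold and 20 in the fit of only those 2 groups, and 11 without and 10 with Y-linked transcripts. All-gene calls were 4484 over every probe set, and 1284 without and 1004 with Y-linked transcripts. CD3 centring moved the median difference of all genes to 0.14, against -0.01 as deposited.

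For the interaction, 1 member was called without the 4 arrays. Pathway calls were 8 with the mean of the probe sets, 15 with array weights, 10 without the 4 arrays, and 3 without and 2 with Y-linked transcripts. All-gene calls were 2273 with array weights, 599 at the stricter threshold, 1710 without the 4 arrays, and 370 without and 242 with Y-linked transcripts. Fewer arrays enter the Y-linked subsets and the fits of 2 groups; otherwise the cause was not tested. Replicate numbers gave no clear pairing of the arrays, though a pairing of some of them was not excluded. The 29 same-numbered pairs correlated between -0.514 and 0.413, 15 of them over 0.1, and 2 of 23 arrays correlated best with their own number. Xist and Y-linked transcripts matched number for number in replicates 1 to 4 of the CD25+ gates. Replicate 3 differed in them between the CD25+ and the CD25- gates.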
